A study of Homarus americanus with 19 samples.

Results

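The comparison asks which transcripts of American lobster (Homarus americanus) larvae differed from control after exposure to petroleum hydrocarbons of either kind. Of the 19 larvae sequenced, 13 had been exposed and 6 had not. The exposed larvae are all those labelled with 1 of 2 treatments: 6 received 1-methylnaphthalene (here methylnaphthalene) at 0.3 mg/L, and 7 received the water accommodated fraction (WAF) of a heavy crude oil at 72%. The methylnaphthalene dose is that of the labels, and the study's supplement states a higher one. The 6 control larvae were kept in seawater passed through a 0.22 µm filter, and every exposure lasted 24 h. Each library is the RNA of 1 whole larva, with no genetic modification and no record of sex, and the study describes the animals as stage I larvae while the sample labels describe them by embryonic age. The groups were formed from the labels alone, and no measured value was used. Each exposure had the same weight in the mean of both, so that the WAF group did not count for more through its extra larva. The exposures share their control larvae, so their changes are not independent of each other and are given side by side.

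1-Methylnaphthalene is a small aromatic hydrocarbon found in crude oil, and a WAF is the water that remains after oil has been mixed with it and allowed to separate. Animals oxidize such compounds with cytochrome P450 enzymes and then couple the products to glutathione, sugars or sulfate, which makes them easier to excrete. Cells also hold chaperones of the heat shock 70 family and adaptors such as sequestosome-1, which refold damaged proteins or pass them on for breakdown. In decapod crustaceans the hepatopancreas secretes the digestive enzymes, stores lipid and carries out much of the oxidation of foreign compounds.

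The same reads had been counted in 2 ways, per transcript of the lobster genome with Kallisto and per group of orthologous genes with Seq2Fun. Total counts ran from 14295541 to 44466298 per larva in the Kallisto table and from 4580939 to 22681602 in the Seq2Fun table, and the exposed and control larvae did not differ in either (exact permutation tests over 27132 splits, two-sided p = 0.786 and 0.909, each 0.909 after adjustment over 4 library measures). Some larvae stood apart from their group. A list of hepatopancreas and gut markers took the 39 genes named as trypsins, hemocyanins or chitinases. Summed over these, WAF larvae 6 and 7 had 13337 and 4392 CPM (counts scaled to a common library size), against 209 to 841 in the other WAF larvae. Control larvae 5 and 6 had the lowest sums over 18 cuticle markers of their group, 1103 and 966 CPM against 2823 to 3488 in the other control larvae. Since the libraries are whole larvae, fewer cells of a type and less RNA per cell cannot be told apart, and because nothing says that the larvae of a group came from separate cultures, p-values measure the spread between these larvae only.

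A total of 140 of 18914 tested genes were differentially expressed (DEGs) in the Kallisto table, which is 0.74% of all genes tested. A DEG had an adjusted p below 0.05 in edgeR's quasi-likelihood test and a log2 fold change, averaged over both exposures, beyond 1.5 in either direction. Of these, 32 were lower in exposed larvae (0.169%) and all others were higher (0.571%). With library sizes left without TMM scaling the split was 28 higher and 31 lower, so the number of higher DEGs depended on the scaling and the number of lower DEGs hardly moved. The Seq2Fun table gave 77 DEGs among 10974 ortholog groups (0.702%), of which 63 were higher (0.574%) and 14 lower (0.128%), and 16 higher and 13 lower without TMM scaling. The median log2 fold change over all tested features was -0.00 and -0.02. Product names were at hand for 1883 of the tested Kallisto genes, of which 5.74% were higher and 1.38% lower DEGs, so the named genes below are not a fair sample of all genes. The gene lists below were matched by name, whereas each background is the share over all tested features. A list count above its background is therefore not by itself an excess over named genes.

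The higher and lower DEGs differed in how far both exposures took part. All higher Kallisto DEGs had an adjusted p below 0.05 with methylnaphthalene alone (background 7.21% higher) and 3 of them with WAF alone (background 0.074% higher), with a median log2 fold change of 2.90 with methylnaphthalene and 1.09 with WAF. Of these genes, 59 differed between the exposures by a direct test (background 3.31% with methylnaphthalene above WAF, 0.328% below), each with the larger change after methylnaphthalene. The 32 lower DEGs had an adjusted p below 0.05 in 22 cases with methylnaphthalene alone (background 1.33% lower) and in 17 with WAF alone (background 0.185% lower), with median log2 fold changes of -2.11 and -3.15, and 10 differed between the exposures, each with the larger change after WAF. In the Seq2Fun table the direct test separated the exposures for 26 of the 63 higher and 4 of the 14 lower groups (background 2.34%), and the medians were 2.94 and 1.12 for the higher and -1.74 and -2.79 for the lower groups. These shares describe DEGs that the mean of both exposures selected, so they are no separate test of either exposure.

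The levels in single larvae showed the same division. In all but 5 of the higher Kallisto DEGs all 6 methylnaphthalene larvae lay above all control larvae, but all 7 WAF larvae did so in 5. Taking the median over the higher DEGs relative to the control mean, methylnaphthalene larvae stood at 2.16 to 3.04 on the log2 scale, WAF larvae 1 to 5 at -0.06 to 0.71, WAF larva 7 at 1.52 and WAF larva 6 at 2.29. The sum over the hepatopancreas and gut markers moved with this median, and its part in the result was not tested. Over the 32 lower DEGs the median was -2.81 to -1.41 in methylnaphthalene larvae and -3.20 to -2.77 in WAF larvae, and WAF larvae 6 and 7 did not stand apart there. Leaving out WAF larvae 6 and 7 gave 50 higher and 40 lower DEGs in the Kallisto table and 22 higher and 14 lower in the Seq2Fun table.

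**Figure D1:**
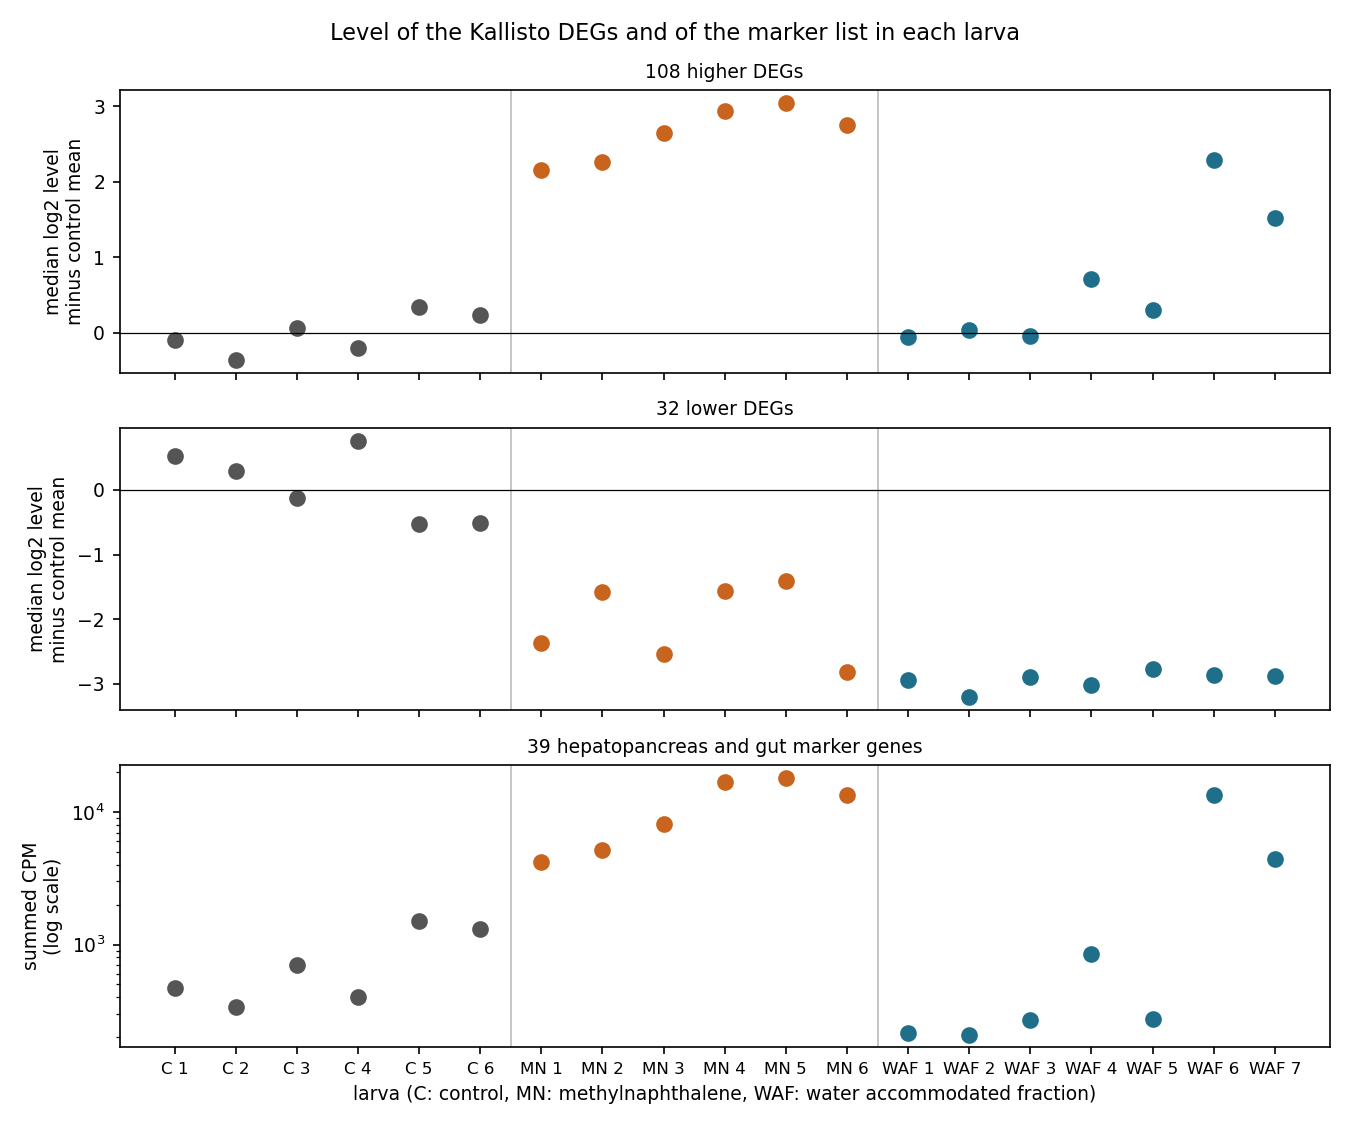
Levels in each of the 19 larvae (x axis) in the Kallisto table. The upper panels plot the median over the higher and the 32 lower DEGs of log2 CPM minus the control mean, and the lowest panel plots the summed CPM of 39 hepatopancreas and gut markers (trypsins, hemocyanins and chitinases by name) on a log scale. Each point is 1 larva. WAF larvae 6 and 7 lie above all other WAF larvae and all control larvae in the first and last panels, while in the middle panel all 13 exposed larvae lie below all 6 control larvae.

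The count of higher DEGs depended on single larvae. Without any 1 of control larvae 1 to 4 the Kallisto table gave 68 to 77 DEGs in place of 140, and the ortholog groups 20 to 26 in place of 77. Without any 1 of WAF larvae 1 to 3, which lack the high values of larvae 6 and 7, the Kallisto count was 195 to 216. The lower DEGs ranged from 25 to 38 over all such fits in the Kallisto table and from 10 to 17 in the Seq2Fun table. When the 13 exposed larvae formed a single group, which takes the difference between the exposures as part of the spread, 10 higher and 16 lower DEGs were called in the Kallisto table and 1 and 6 in the Seq2Fun table.

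**Figure D2:**
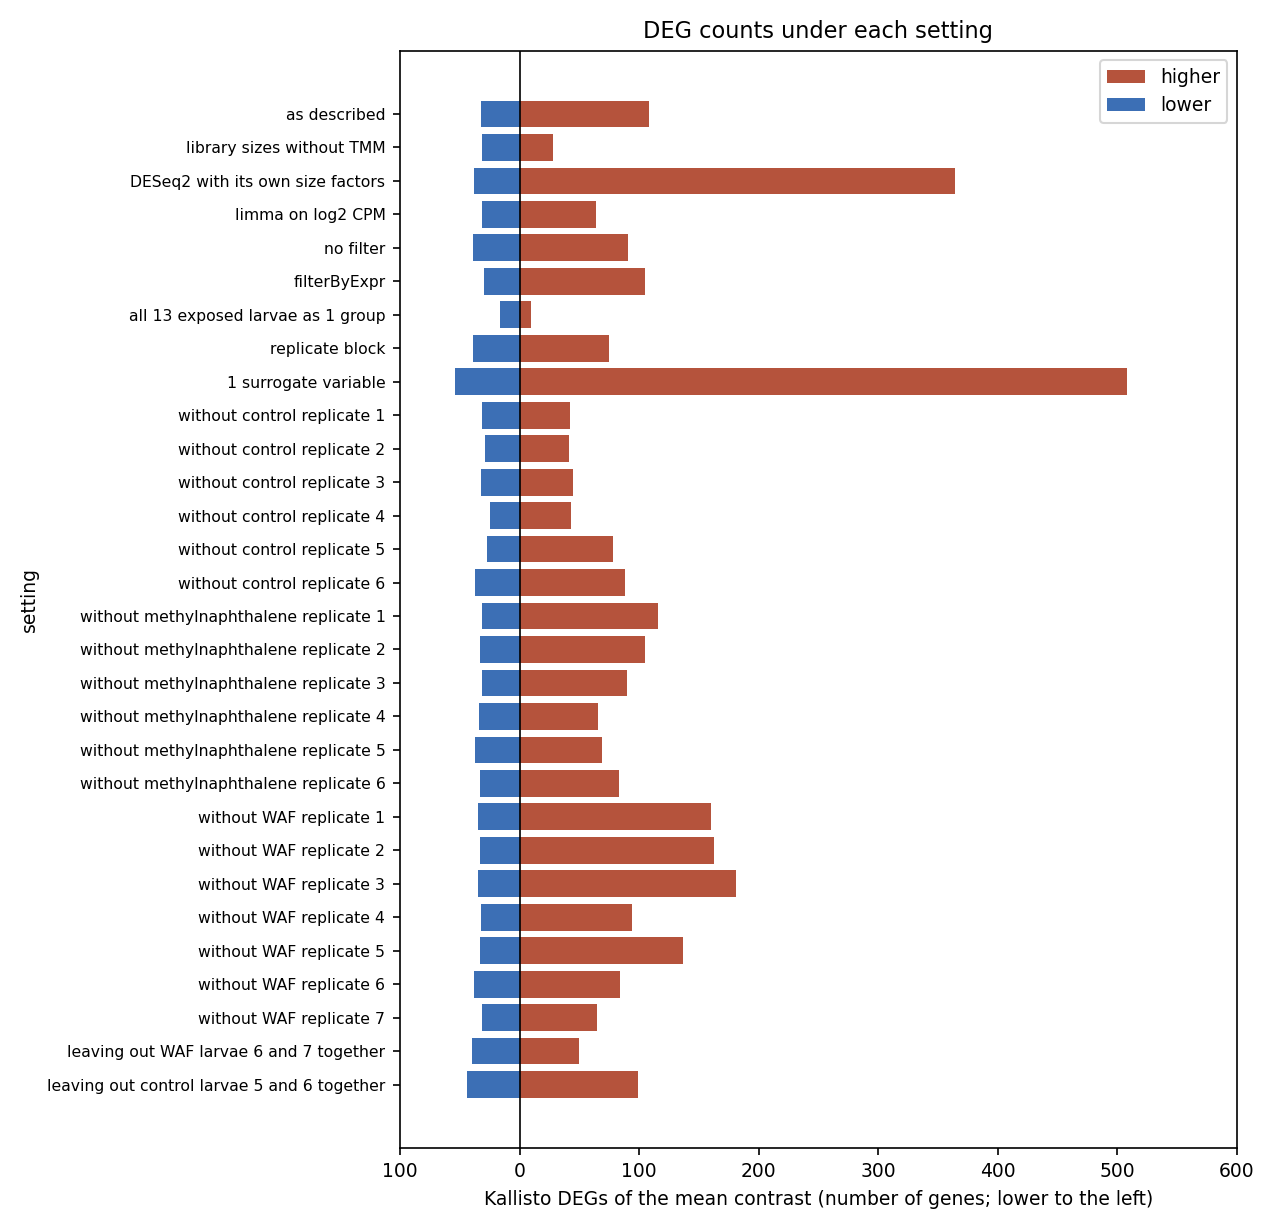
Number of Kallisto DEGs (x axis, higher to the right and lower to the left of 0) for the analysis as described and under each alternative (y axis). The lower DEGs number 16 to 54 apart from the analysis as described with 32, while the higher DEGs range from 10 to 508. The setting without a fold change threshold, with 503 higher and 131 lower genes, is not drawn.

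A stricter view of what the exposures share is given by the features for which all 13 exposed larvae lay beyond the 6 control larvae in 1 direction. Of the Kallisto genes 54 of 18914 genes did so (0.286%), 33 above (0.174%) and 21 below (0.111%), and of these 4 were higher DEGs and 9 lower DEGs. Among ortholog groups 24 of 10974 did so (0.219%), 15 above (0.137%) and 9 below (0.082%), of which 1 was a higher and 4 were lower DEGs. All 33 genes above passed at adjusted p below 0.05, as did 18 of the 21 below, and 29 and 12 of them were not DEGs, through the fold threshold in all but 3 genes. Many of the genes described next belong to these sets, and those that are not DEGs were chosen after their values were seen.

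Sequestosome-1-like (LOC121853632), an adaptor that links ubiquitinated proteins to autophagy, had the smallest adjusted p among the Kallisto genes named here. Its lowest, median and highest levels were 470.5, 493.04 and 557 CPM in control larvae, 180.5, 215 and 259 CPM with methylnaphthalene and 176, 182 and 199 CPM with WAF. No exposed larva came near the control range, and the mean log2 fold change was -1.34 (SE 0.07, edgeR adjusted p = 2.66e-09), composed of -1.22 with methylnaphthalene and -1.46 with WAF. The exposures differed by 0.24 (95% interval 0.07 to 0.42), which was not past the threshold (adjusted p = 0.134). Over 30 alternatives its adjusted p stayed at or below 1.63e-06.

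AN1-type zinc finger protein 2A-like (LOC121878881), whose mammalian relative is induced by arsenite and acts with the proteasome, ran from 92 to 298 CPM in control larvae, 7.74 to 31 CPM with methylnaphthalene and 4.92 to 13.2 CPM with WAF. No exposed larva reached the control range and the mean log2 fold change was -3.91 (SE 0.27, edgeR adjusted p = 1.35e-07), with -3.39 and -4.43 in the single exposures. Its ortholog group (s2f_0001499003) fell by 4.07 on the log2 scale (adjusted p = 1.68e-10), with -3.69 for methylnaphthalene and -4.45 for WAF.

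Heat shock 70 genes fell as well. LOC121855754, LOC121855757 and LOC121855758 have like names, and their sequences were not compared, so how Kallisto split reads between them is uncertain. Summed over the 3, control larvae held 41.2, 244 and 504 CPM (lowest, median, highest), methylnaphthalene larvae 0.759, 7.48 and 22.5 CPM and WAF larvae 1.05, 2.44 and 7.47 CPM. The control larvae spread widely, with larvae 5 and 6 lowest at 54 and 41.2 CPM, and still no exposed larva reached them. The mean log2 fold changes of the 3 genes were -5.69, -5.40 and -5.30 (edgeR adjusted p = 4.56e-06, 4.07e-05 and 0.000104), from -5.13, -4.74 and -4.79 with methylnaphthalene and -6.26, -6.07 and -5.81 with WAF. HSP70-binding protein 1 (s2f_0001620001), a nucleotide exchange factor for the 70 kDa chaperones, went from 21.5, 32.8 and 56.7 CPM in control larvae to 14.6, 16 and 16.7 CPM with methylnaphthalene and 13.3, 14.9 and 18.7 CPM with WAF. All exposed larvae lay below all control larvae for it as well, by -1.14 on the log2 scale in the mean (SE 0.15, adjusted p = 2.92e-04), -1.12 and -1.16 in the single exposures.

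Within the list of heat shock proteins and co-chaperones, 4 of 12 tested Kallisto genes were lower DEGs and 7 had an adjusted p below 0.05 in that direction (background 0.693%). Its median log2 fold change was -0.71, with -0.72 for methylnaphthalene and -0.73 for WAF. Among ortholog groups 5 of 10 were lower at adjusted p below 0.05 (background 0.447%), 2 of them DEGs, with a median of -0.63. In both tables these counts were the same without WAF larvae 6 and 7. In the mean of both exposures no member of this list was higher at adjusted p below 0.05 in edgeR or DESeq2 in either table, although 2 Kallisto members were at an unadjusted p. With methylnaphthalene alone 3 of the 12 Kallisto members were higher (background 7.21%) and 6 lower (1.33%), and with WAF alone 0 and 4 (0.074% and 0.185%). The 3 higher ones, named after their values were seen, were heat shock protein 22-like (LOC121875504, 1.701 with methylnaphthalene, adjusted p = 0.00695), heat shock protein 67B1-like (LOC121866438, 0.72, adjusted p = 0.0242) and heat shock 70 kDa protein cognate 4-like (LOC121863075, 0.70, adjusted p = 0.0171).

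Tubulin-folding cofactor B-like (LOC121879951), which helps to assemble tubulin heterodimers, had 174, 225 and 259.7 CPM in control larvae, 90.9, 95 and 109.9 CPM with methylnaphthalene and 87.7, 100.2 and 120.3 CPM with WAF. No exposed larva reached the control range, and the change was nearly equal in both exposures, at -1.13 and -1.10 (mean -1.12, SE 0.09, edgeR adjusted p = 6.28e-07), with a difference between them of -0.03 (95% interval -0.25 to 0.18). E3 ubiquitin-protein ligase TRIM32-like (LOC121864745), of a family that marks proteins for breakdown, was lower by -1.76 in the mean (SE 0.29, adjusted p = 0.0022), -1.37 with methylnaphthalene and -2.15 with WAF. It was below all control larvae in 11 of 13 exposed larvae, and without control larva 2 the change was -1.46. Among ortholog groups, an exonuclease 3'-5' domain-containing protein 2 (s2f_0001028003), a nuclease with roles in DNA end processing in mammals, fell in all 13 larvae below the control range by -0.90 (SE 0.12, adjusted p = 0.00055), -0.93 and -0.86 by exposure.

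**Figure D3:**
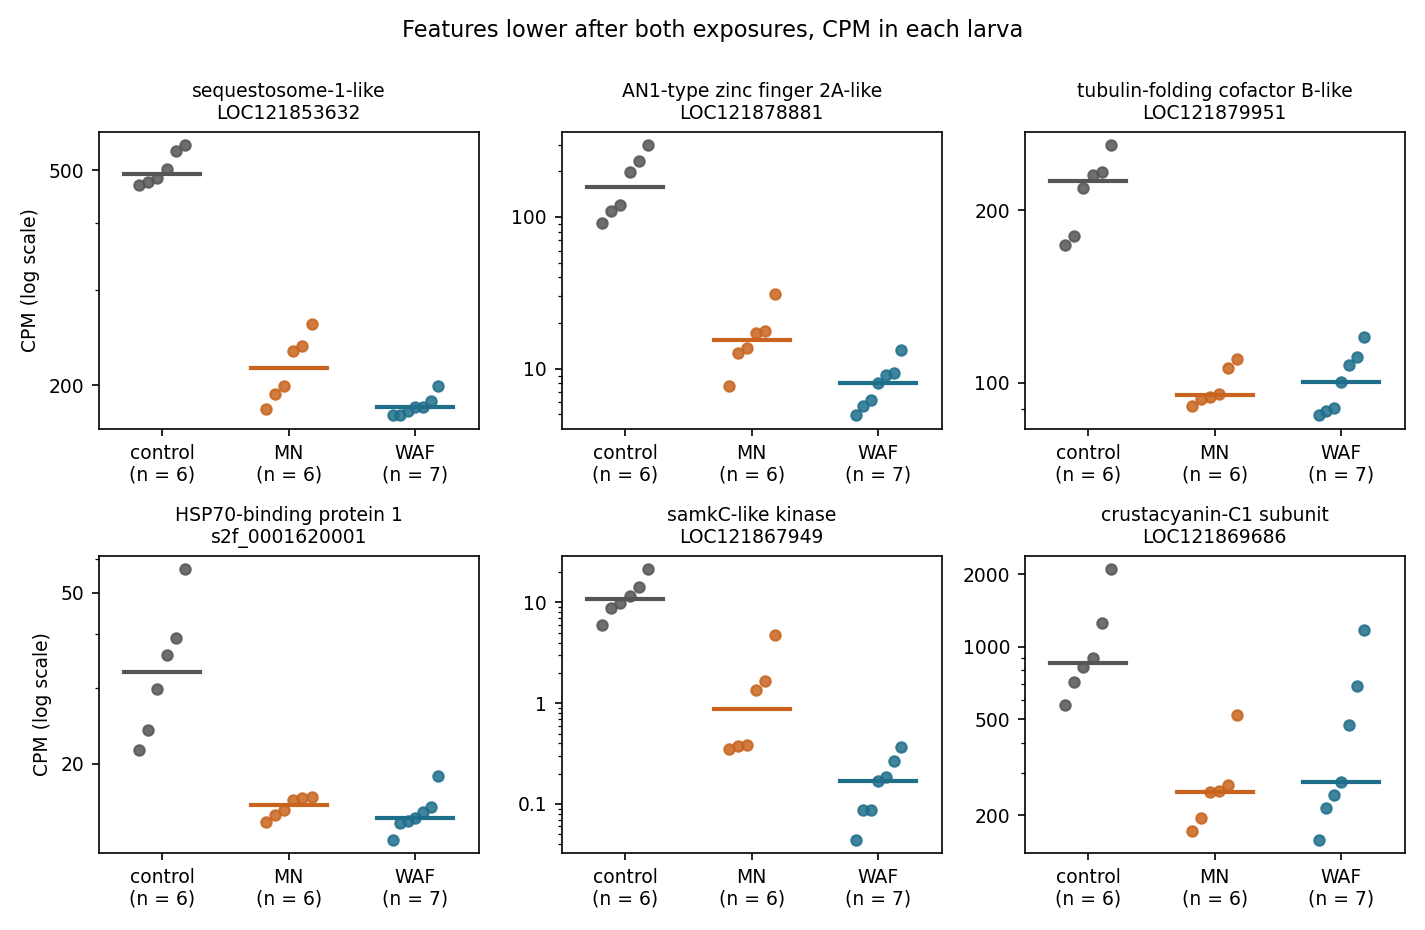
CPM on a log scale (y axis) in control, methylnaphthalene (MN) and WAF larvae for 6 features that were lower after both exposures. Each point is 1 larva and each line the group median. In the first 5 panels no exposed larva reaches the control range, and for the crustacyanin-C1 subunit 2 WAF larvae lie within it.

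The kinase gene samkC-like (LOC121867949), named after a Dictyostelium serine/threonine kinase, had a clear order of the groups. It had 5.99, 10.8 and 21.3 CPM in control larvae, 0.354, 0.874 and 4.75 CPM with methylnaphthalene and 0.0442, 0.169 and 0.368 CPM with WAF. All exposed larvae lay below all control larvae, by -2.98 with methylnaphthalene and -5.94 with WAF (mean -4.46, SE 0.46, edgeR adjusted p = 3.22e-05). The difference of 2.96 between the exposures (95% interval 1.66 to 4.26) passed the test (adjusted p = 0.0103). Its ortholog group (s2f_0112968001) had values of -3.002 and -5.86, and the difference of 2.86 passed there too (adjusted p = 0.0233).

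Cytochrome P450 genes moved in both directions. The lower ones were named for family 6, an insect family used in the breakdown of foreign compounds. Of the 7 genes with such a name, 4 were lower DEGs (background 0.169%, and 1.38% among named genes), and 1 other was higher at adjusted p below 0.05 (background 2.66%). All 4 were low in abundance, and all 13 exposed larvae lay below all control larvae for each. LOC121864545 (P450 6k1-like) had 33 to 269 counts per control larva, 2 to 12 with methylnaphthalene and 0 to 7 with WAF. Its mean log2 fold change was -4.21 (SE 0.45, edgeR adjusted p = 4.07e-05), with -3.70 and -4.72 by exposure.

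LOC121878279 (P450 6k1-like) had 14 to 92 counts in control larvae, 0 to 9 with methylnaphthalene and 0 to 5 with WAF, where 6 of 7 larvae had no count. Its fitted change was -4.25 in the mean (adjusted p = 0.00207), -3.46 with methylnaphthalene and -5.04 with WAF. LOC121854089 (P450 6a18) had 15 to 76, 0 to 16 and 2 to 21 counts in the same order, and changed by -2.40 (adjusted p = 0.00277; -2.88 and -1.93). LOC121859289 (P450 6k1-like) had 6 to 56, 0 to 9 and 0 to 6 counts and changed by -3.44 (adjusted p = 0.0055; -2.98 and -3.89). No difference between the exposures passed for any of the 4, and the intervals of those differences were wide, from -0.88 to 4.06 for LOC121878279. The genes named P450 6k1 may resemble each other, which was not examined, so the share of reads given to each is uncertain.

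Over all 28 Kallisto genes named as cytochrome P450, 7 were higher and 4 lower at adjusted p below 0.05 (background 2.66% and 0.693%), and 2 and 4 were DEGs. The median log2 fold change was 1.29, with 2.26 for methylnaphthalene and 0.57 for WAF. With methylnaphthalene alone 22 were higher and 4 lower at adjusted p below 0.05 (background 7.21% and 1.33%), whereas with WAF alone 2 passed, both lower (background 0.185%). Probable cytochrome P450 49a1 (s2f_0000436007), of a mitochondrial P450 family in insects, was the ortholog group of this list in which all 13 exposed larvae lay above all control larvae. It had 121, 144 and 162 CPM in control larvae, 220.4, 265 and 371 CPM with methylnaphthalene and 185, 206 and 240.5 CPM with WAF, and rose by 0.73 in the mean (SE 0.11, adjusted p = 0.00081), 0.95 and 0.52 by exposure. Cytochrome P450 2L1-like (s2f_0000004090), of a family first described from spiny lobster hepatopancreas, rose by 1.36 in the mean (adjusted p = 0.0101), with 2.00 for methylnaphthalene and 0.72 for WAF, a difference that passed (adjusted p = 0.0191).

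Genes listed under conjugation passed the test in the higher direction only, with small counts. In the Kallisto table glutathione S-transferases had 2 of 5 tested genes higher at adjusted p below 0.05, UDP-glycosyltransferases and related sugar nucleotide enzymes 3 of 14, and sulfotransferases 2 of 7 (background 2.66%). Among ortholog groups edgeR called 0 of 5, 1 of 5 and 0 of 1 in the same order (background 2.07%), with 3, 4 and 1 higher at an unadjusted p below 0.05, and DESeq2 called 0, 3 and 0. The ortholog group that edgeR called was UDP-glucose 4-epimerase-like (s2f_0001138006, adjusted p = 0.00665), a sugar nucleotide enzyme, so none named as a transferase passed. UDP-glucuronosyltransferase 2B13 (s2f_0000108005) missed the threshold (adjusted p = 0.0987). Of the 3 Kallisto calls 1 was also such an epimerase (LOC121872375, adjusted p = 0.00515). Microsomal glutathione S-transferase 3-like (LOC121875339) rose by 0.97 (adjusted p = 0.00497; 1.37 with methylnaphthalene, 0.57 with WAF), glutathione S-transferase Mu 1-like (LOC121855619) by 0.72 (adjusted p = 0.0219; 1.14 and 0.31), and sulfotransferase 1A1-like (LOC121856847) by 0.72 (adjusted p = 1.81e-04; 1.06 and 0.37). UDP-glycosyltransferase UGT5-like (LOC121873674), which adds sugars to small lipophilic molecules, rose by 1.00 (adjusted p = 0.00535; 1.47 and 0.53). For these 4 genes the change was larger with methylnaphthalene by the direct test (adjusted p = 0.0245, 0.0149, 5.68e-04 and 0.0127), and without TMM scaling all but the sulfotransferase no longer passed (adjusted p = 0.0546, 0.149 and 0.0866). The Mu 1-like gene also lost its call when control larvae 5 and 6 were left out (adjusted p = 0.0605) or without control larva 1 or 2 (0.0593 and 0.0625). None of these genes had an adjusted p below 0.05 with WAF alone.

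Crustacyanins, the lipocalin subunits that bind astaxanthin and colour the lobster shell blue, formed the largest group of lower DEGs that share a name. Of 10 tested genes 7 were lower DEGs, against a background of 0.169% (1.38% among named genes), and the 10 fitted changes ran from -2.17 to -1.51 with a median of -1.76. Summed over the 10, control larvae held 2362, 3502 and 8889 CPM, methylnaphthalene larvae 764, 846 and 2376 CPM, and WAF larvae 626, 1161 and 4937 CPM. The groups overlapped, with WAF larvae 3 and 5 and methylnaphthalene larva 5 inside the control range.

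Crustacyanin-A2 subunit (LOC121869714) had 256, 357 and 1074 CPM in control larvae, 53.8, 71.9 and 222 CPM with methylnaphthalene and 48.3, 103.6 and 400.2 CPM with WAF. It was below all control larvae in 11 of 13 exposed larvae and changed by -1.997 in the mean (SE 0.43, edgeR adjusted p = 0.0137), -2.35 with methylnaphthalene and -1.65 with WAF. Crustacyanin-C1 subunit-like (LOC121869723) had -2.03 (SE 0.46, adjusted p = 0.0189), -2.05 and -2.01. No crustacyanin had an adjusted p below 0.05 with WAF alone. All 7 calls were lost when control larvae 5 and 6, the first of which had the highest crustacyanin sum, were left out together, with adjusted p from 0.0634 to 0.0938, and 6 of 7 were lost without control larva 4 alone or control larva 5 alone, at up to 0.0987. The crustacyanin-a2 ortholog group (s2f_0001152004) behaved alike, at -1.66 (adjusted p = 0.0313; -2.06 and -1.26) and with adjusted p = 0.116 without those larvae, the highest over its alternatives. The genes carry names of 1 family and their sequences were not compared, so they are not taken as independent genes.

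The sum over 18 cuticle genes also had a lower median after both exposures. In control larvae it was 966, 3027 and 3488 CPM (lowest, median, highest). With methylnaphthalene it was 548, 1307 and 1763 CPM, and with WAF 978, 1356 and 2624 CPM. The groups overlapped, and none of the 18 genes had an adjusted p below 0.05 in edgeR. No marker was at 0 in a whole group. The larvae ranked differently in the cuticle and crustacyanin sums. Control larva 5 was highest in the crustacyanin sum and among the lowest of its group in the cuticle sum. The highest WAF larva was larva 3 in the former and larva 4 in the latter. The part of the cuticle sum in the crustacyanin values was not tested. Of 35 genes of chitin and cuticle, edgeR called 0 in either direction, with 15 higher and 16 lower at an unadjusted p below 0.05, and DESeq2 called 14 higher and 3 lower at adjusted p below 0.05. Pro-resilin-like (LOC121877773), a precursor of the elastic cuticle protein resilin, was a lower DEG at -1.74 (SE 0.33, adjusted p = 0.00558; -1.73 and -1.75). Its control larvae ran from 0.42 to 3.43 CPM and overlapped the exposed larvae, which ran from 0.349 to 0.928 CPM. Acanthoscurrin-1-like (LOC121864819), named for a glycine-rich antimicrobial peptide of spiders, was below all control larvae in all 13 exposed larvae and changed by -1.40 (SE 0.25, adjusted p = 0.0039; -1.49 and -1.30).

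Several genes without a named product fell further with WAF than with methylnaphthalene. LOC121863978 had 39.3, 114 and 139.98 CPM in control larvae, 16.5, 23.4 and 83.4 CPM with methylnaphthalene and 0.468, 1.58 and 8.78 CPM with WAF. WAF larvae lay far below every other larva, and of the methylnaphthalene larvae 1 lay within the control range. The mean change was -3.41 (SE 0.46, edgeR adjusted p = 4.1e-04), from -1.63 with methylnaphthalene (adjusted p = 0.0884) and -5.19 with WAF (adjusted p = 2.88e-04), and the difference of 3.56 passed (adjusted p = 0.00194). LOC121863976 and LOC121863977, with neighbouring identifiers, had -1.32 and -0.76 with methylnaphthalene and -4.72 and -3.77 with WAF, and LOC121876260 had -1.34 and -4.87. For these 3 the direct test also passed (adjusted p = 0.00417, 0.00103 and 0.00455), and none of the 4 passed with methylnaphthalene alone. As a mean over both exposures they therefore describe WAF more than methylnaphthalene.

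Ortholog groups without a product name were lower in both exposures alike. The hypothetical protein s2f_0005007002 had 386, 400.03 and 458 CPM in control larvae, 111, 151 and 180.02 CPM with methylnaphthalene and 95.5, 121 and 145 CPM with WAF. The groups were far apart, and the mean change was -1.60 (SE 0.10, edgeR adjusted p = 1.2e-08; -1.44 and -1.75). The hypothetical protein s2f_0000647004 showed the same separation, from 45.3 to 65.9 CPM in control larvae to 6.86 to 23.8 CPM in exposed larvae, with -2.11 in the mean (SE 0.20, adjusted p = 8.09e-06; -1.96 and -2.26).

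Alpha,alpha-trehalose-phosphate synthase (LOC121861358), which makes the blood sugar trehalose of arthropods, was the only named higher Kallisto DEG in which no exposed larva overlapped control. It had 134, 211 and 255 CPM in control larvae, 429.99, 808 and 1206 CPM with methylnaphthalene and 314, 482 and 554 CPM with WAF. The order of the groups was control, WAF, methylnaphthalene, with mean log2 fold change 1.55 (SE 0.19, edgeR adjusted p = 1.5e-04), 1.98 with methylnaphthalene (adjusted p = 1.8e-05) and 1.13 with WAF (adjusted p = 0.0147). The exposures differed by 0.85 (95% interval 0.43 to 1.26, adjusted p = 0.0209). Over 30 alternatives its adjusted p stayed at or below 0.00892, although without control larva 4 or methylnaphthalene larva 2 the change was 1.46 or 1.49, and without TMM scaling 1.47, inside the fold threshold. Its ortholog group (s2f_0000779006) gave 1.57 (adjusted p = 2.92e-04), with 2.00 and 1.14, and facilitated trehalose transporter Tret1-like (s2f_0000010050), which carries trehalose across membranes, gave 0.75 (adjusted p = 0.00081), with 1.18 and 0.33.

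Phosphoenolpyruvate carboxykinase (s2f_0004494001), the enzyme that commits carbon to new glucose, had 525, 660.04 and 824 CPM in control larvae, 1308, 1766 and 1972 CPM with methylnaphthalene and 918, 1117 and 1269 CPM with WAF. The 3 groups did not overlap at all. The mean rise was 1.04 (SE 0.13, edgeR adjusted p = 2.75e-04), 1.38 with methylnaphthalene and 0.71 with WAF (adjusted p = 0.0352 for WAF alone). Glutamine synthetase-like (LOC121864940), which fixes ammonia into glutamine, had 377, 458 and 685 CPM, 951, 1371 and 2065 CPM, and 713, 774 and 863 CPM in the same order of groups. Its exposed larvae lay above the control range, by 1.07 in the mean (SE 0.17, adjusted p = 0.00196), 1.49 with methylnaphthalene and 0.65 with WAF, where it missed the threshold alone (adjusted p = 0.258).

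Enzymes of fatty acid and acetate use rose by less, and some did so nearly equally in both exposures. Gamma-butyrobetaine dioxygenase-like (s2f_0002068006), which makes carnitine for fatty acid transport, had 46.5 to 68.3 CPM in control larvae and 79.9 to 139 CPM in exposed larvae, with 0.82 in the mean (SE 0.13, adjusted p = 0.00144; 0.95 and 0.69). Acetyl-coenzyme A synthetase 2-like (s2f_0000717005), which activates acetate, had 31.9 to 48.3 CPM in control larvae and 49.4 to 66.1 CPM in exposed larvae, with 0.53 (SE 0.10, adjusted p = 0.00591; 0.55 and 0.51). Its exposures differed by 0.04 (95% interval -0.19 to 0.26). In the list of peroxisome and fatty acid oxidation genes, 7 of 10 Kallisto genes were higher at adjusted p below 0.05 (background 2.66%), 2 of them DEGs, with a median of 0.56 (0.75 with methylnaphthalene, 0.38 with WAF), and 1 of 11 ortholog groups was (background 2.07%). Phytanoyl-CoA dioxygenase (LOC121860504), which starts the breakdown of branched fatty acids, rose by 0.78 (adjusted p = 0.003; 1.14 and 0.41), with an adjusted p of 0.0672 without TMM scaling.

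Antioxidant genes showed the same direction, with 4 of 9 Kallisto genes and 4 of 12 ortholog groups higher at adjusted p below 0.05 (background 2.66% and 2.07%). Peroxiredoxin-6-like (LOC121866244), which reduces peroxides, had 85, 96.6 and 101 CPM in control larvae, 122, 149 and 175 CPM with methylnaphthalene and 106, 115 and 125 CPM with WAF. All exposed larvae lay above all control larvae, although the rise was small, at 0.47 (SE 0.07, edgeR adjusted p = 0.00133; 0.64 and 0.30). Ferritin-like (LOC121867537), the iron store of the cell, rose by 0.69 (adjusted p = 0.00273; 1.09 and 0.29), and metallothionein-1-like (s2f_0072226001), which binds metal ions, by 0.73 (adjusted p = 0.00746; 1.29 and 0.17). Without TMM scaling peroxiredoxin-6-like and ferritin-like missed the threshold (adjusted p = 0.0771 and 0.071), and so did metallothionein-1-like without control larvae 5 and 6 (adjusted p = 0.0505).

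**Figure D4:**
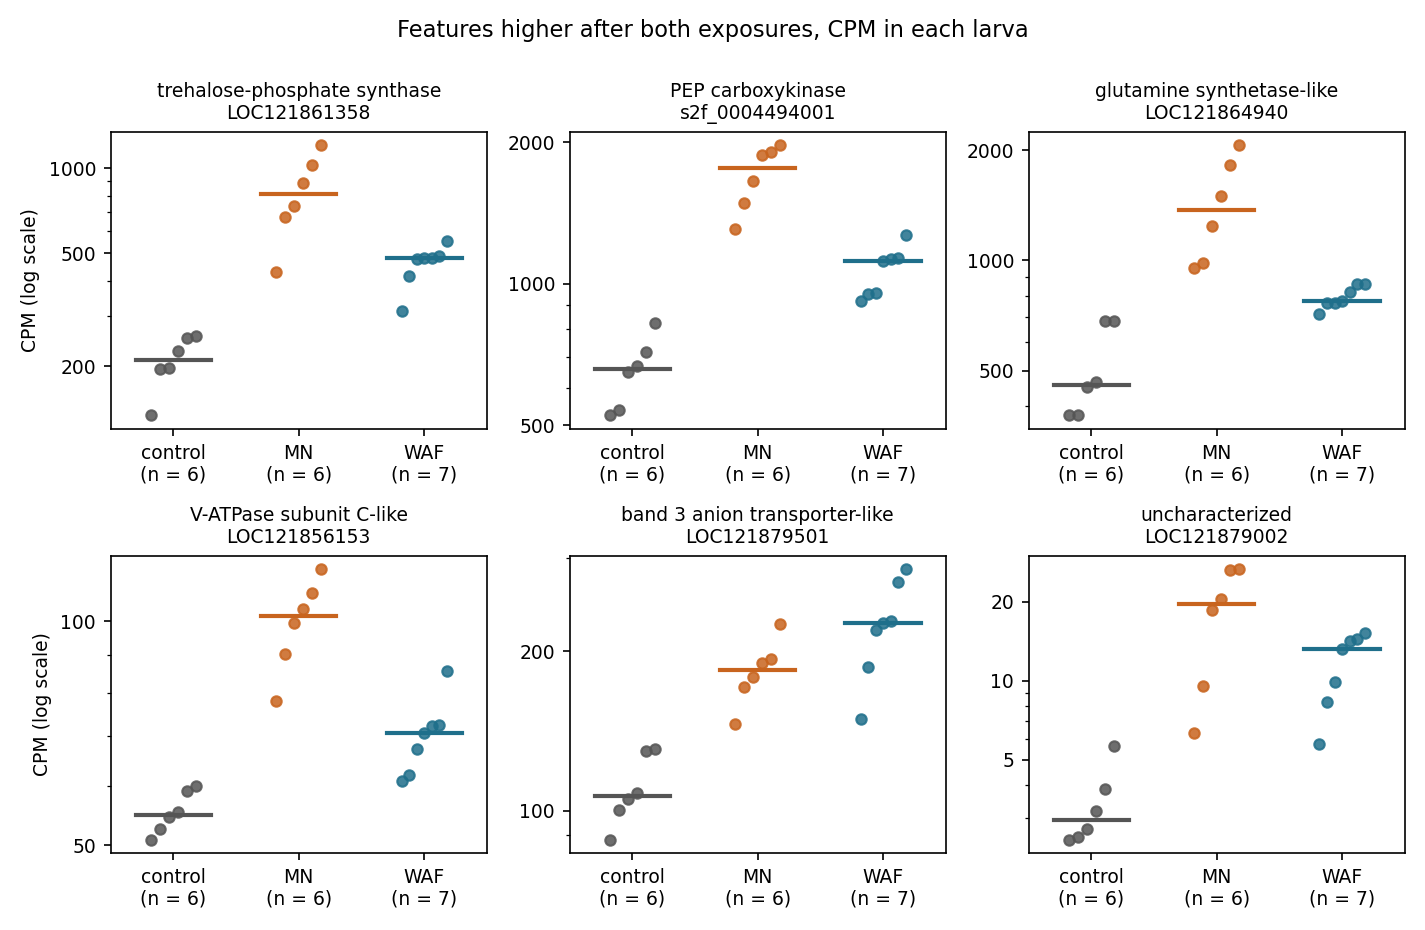
CPM on a log scale (y axis) in control, methylnaphthalene (MN) and WAF larvae for 6 features that were higher after both exposures. Each point is 1 larva and each line the group median. No exposed larva overlaps the control larvae in any panel, and band 3-like is the panel in which the WAF median (226 CPM) lies above the methylnaphthalene median (185 CPM).

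Ion and solute transport gave higher genes whose change did not pass as different between the exposures. Band 3 anion transport protein-like (LOC121879501), of the family that exchanges chloride for bicarbonate, had 88.1, 107 and 131 CPM in control larvae, 146, 185 and 225 CPM with methylnaphthalene and 149, 226 and 286 CPM with WAF. All exposed larvae lay above all control larvae, by 0.88 in the mean (SE 0.13, edgeR adjusted p = 9.29e-04). Both exposures passed alone, at 0.74 (adjusted p = 0.00284) and 1.02 (adjusted p = 0.00122), and their difference of -0.28 (95% interval -0.57 to 0.01) did not pass. Proton-coupled folate transporter-like (LOC121866365), a folate importer in mammals, was a higher DEG with 0.799 to 2.45 CPM in control larvae, 2.99 to 7.64 CPM with methylnaphthalene and 1.84 to 6.55 CPM with WAF. It lay above all control larvae in 12 of 13 exposed larvae and rose by 1.66 (SE 0.30, adjusted p = 0.00427; 1.86 and 1.46), with a difference of 0.40 (95% interval -0.25 to 1.05). Without control larvae 5 and 6 its change was 1.42, inside the fold threshold.

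V-type proton ATPase, the pump that acidifies lysosomes and energizes crustacean epithelia, had subunits that rose slightly in every exposed larva. Subunit C-like (LOC121856153) had 50.9, 55 and 60.1 CPM in control larvae, 78.1, 102 and 117 CPM with methylnaphthalene and 61, 70.7 and 85.7 CPM with WAF, a rise of 0.59 (SE 0.09, edgeR adjusted p = 8.53e-04; 0.85 and 0.34). Subunit d 1-like (LOC121863851) rose by 0.41 (SE 0.05, adjusted p = 1.96e-04; 0.59 and 0.22), from 78.5 to 90.7 CPM in control larvae to 92.8 to 131 CPM in exposed larvae. Organic cation transporter protein-like (LOC121857807) rose by 0.45 (SE 0.08, adjusted p = 0.00287; 0.54 and 0.36). All 3 missed the threshold without TMM scaling (adjusted p = 0.077, 0.129 and 0.155), and none passed with WAF alone. In the list of solute transporters, 19 of 92 Kallisto genes were higher and 1 lower at adjusted p below 0.05 (background 2.66% and 0.693%), with 4 higher DEGs (0.571%). Among all Kallisto genes with a name 5.74% were higher DEGs, so 4 of 92 is no excess over named genes. Of 49 ortholog groups 12 were higher (background 2.07%), 5 of them DEGs (0.574%). Without WAF larvae 6 and 7 the higher DEGs of this list were 2 in each table.

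Genes that act on transcription were among the fully separated ones. Histone acetyltransferase KAT6A-like (LOC121858716), a chromatin enzyme, had 41.2, 47.7 and 50.3 CPM in control larvae, 67.2, 78.1 and 80.8 CPM with methylnaphthalene and 54.7, 67.6 and 78.5 CPM with WAF. It rose by 0.62 (SE 0.08, edgeR adjusted p = 1.96e-04), and both exposures passed alone, at 0.72 (adjusted p = 6.29e-05) and 0.52 (adjusted p = 0.00594). T-box transcription factor TBX6-like (LOC121871165), of a family that patterns mesoderm, had 6.34, 8.05 and 8.78 CPM, 15.9, 17.9 and 23.1 CPM, and 9.66, 10.4 and 12.3 CPM in the same order. The groups followed each other without overlap, with 0.83 in the mean (SE 0.09, adjusted p = 8.09e-05), 1.24 with methylnaphthalene and 0.43 with WAF, and the difference of 0.82 passed (adjusted p = 2.88e-04). Transcription factor SOX-9-like (LOC121873486) rose by 0.97 (SE 0.15, adjusted p = 0.00106; 1.26 and 0.69). Over 30 alternatives the adjusted p of KAT6A-like stayed at or below 0.0231, of TBX6-like at or below 0.0473 and of SOX-9-like at or below 0.0202.

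The other 3 higher DEGs with full separation have no named product. LOC121879002 had 2.48, 2.95 and 5.62 CPM in control larvae, 6.33, 19.5 and 26.6 CPM with methylnaphthalene and 5.76, 13.2 and 15.2 CPM with WAF. It was the 1 of them whose exposures did not differ by the test, at 2.41 and 1.78 (mean 2.10, SE 0.31, edgeR adjusted p = 0.00105), with a difference of 0.64 (95% interval -0.01 to 1.29). LOC121879926 rose by 2.68 (adjusted p = 1.5e-04; 3.70 and 1.66), and both of these genes passed with WAF alone (adjusted p = 0.0206 and 0.0434). LOC121867443, annotated as a long noncoding RNA, was at 0 to 3 counts in control larvae, 33 to 250 with methylnaphthalene and 2 to 41 with WAF. Its fitted change of 4.35 (adjusted p = 0.00225; 6.24 and 2.47) depends on the prior count, since 3 of the 6 control larvae had no count.

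Most other higher DEGs were far higher with methylnaphthalene than with WAF. Sodium-dependent nutrient amino acid transporter 1-like (LOC121874308), which takes up essential amino acids in insect gut, had 0.925, 3.03 and 3.49 CPM in control larvae, 115, 139.96 and 180.3 CPM with methylnaphthalene and 3.05, 6.76 and 22.3 CPM with WAF. WAF larva 6 was its highest WAF larva and 12 of 13 exposed larvae lay above all control larvae, with 5.80 against 1.75 on the log2 scale and a mean of 3.77 (SE 0.43, edgeR adjusted p = 8.16e-05). The kinase meng-po-like (LOC121872643) had 5.69 with methylnaphthalene and 0.15 with WAF, where its 0.31 to 1.1 CPM overlapped the 0.393 to 1.39 CPM of the control larvae. Its mean of 2.92 (adjusted p = 0.00427) therefore rests on the methylnaphthalene larvae. Baculoviral IAP repeat-containing protein 7-like (LOC121876286), an inhibitor of caspases in mammals, had 3.53 and 0.61, from 1.1 to 1.39 CPM in control larvae, 12.2 to 18 CPM with methylnaphthalene and 0.841 to 4.92 CPM with WAF. Caspase-2-like (LOC121879450), a protease of cell death, had 2.55 and 0.82 (mean 1.69, adjusted p = 0.0148). Without WAF larvae 6 and 7 its mean change was 1.27, inside the fold threshold, and without TMM scaling its adjusted p was 0.0784.

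Genes of the gut epithelium and of digestion were part of this group. Villin-1-like (LOC121870958), an actin bundler of microvilli, had 33.7, 39.8 and 41.3 CPM in control larvae, 109.9, 205 and 246 CPM with methylnaphthalene and 37.8, 49.1 and 156 CPM with WAF, a mean change of 1.53 (SE 0.27, edgeR adjusted p = 0.00361; 2.28 and 0.78). Without WAF larvae 6 and 7 it was 1.26, and without WAF larva 6 alone 1.35, below the fold threshold. The same holds for cationic trypsin-like (LOC121863887), a digestive protease, at 1.64 (adjusted p = 0.0291; 2.45 and 0.82) and 1.22 without the pair, and its adjusted p also rose to between 0.0516 and 0.0874 without control larva 1, 2, 3, 4 or 6. Endoglucanase E-4-like (LOC121865164), which cleaves cellulose, had 2.04 (adjusted p = 0.00517; 3.08 and 1.00). Of the 39 hepatopancreas and gut markers themselves, 3 had an adjusted p below 0.05 (background 2.66% higher and 0.693% lower) and 2 were higher DEGs (background 0.571%). Among all Kallisto genes with a name 5.74% were higher DEGs, so 2 of 39 is no excess over named genes. No marker was at 0 in a whole group. The list holds hemocyanins as well as trypsins and chitinases, and their shares of the sum were not separated. Summed, the 39 markers held 340 to 1507 CPM in control larvae, 4212 to 18089 CPM with methylnaphthalene and 209 to 13337 CPM with WAF, with 5 of 7 WAF larvae at 841 CPM or below. Muscle markers, of which 2 Kallisto genes could be matched, had lower medians after both exposures, with overlapping ranges. Their sum was 4094, 4776 and 5715 CPM in control larvae (lowest, median, highest). It was 2542, 2866 and 4163 CPM with methylnaphthalene and 2556, 3228 and 4224 CPM with WAF. Among ortholog groups 6 muscle markers were matched, with median sums of 41428, 29030 and 24238 CPM in the same order and overlapping ranges. Of these 6, troponin T was lower and muscle actin higher at adjusted p below 0.05 in edgeR. The part of the gut or muscle markers in the other results was not tested.

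**Figure D5:**
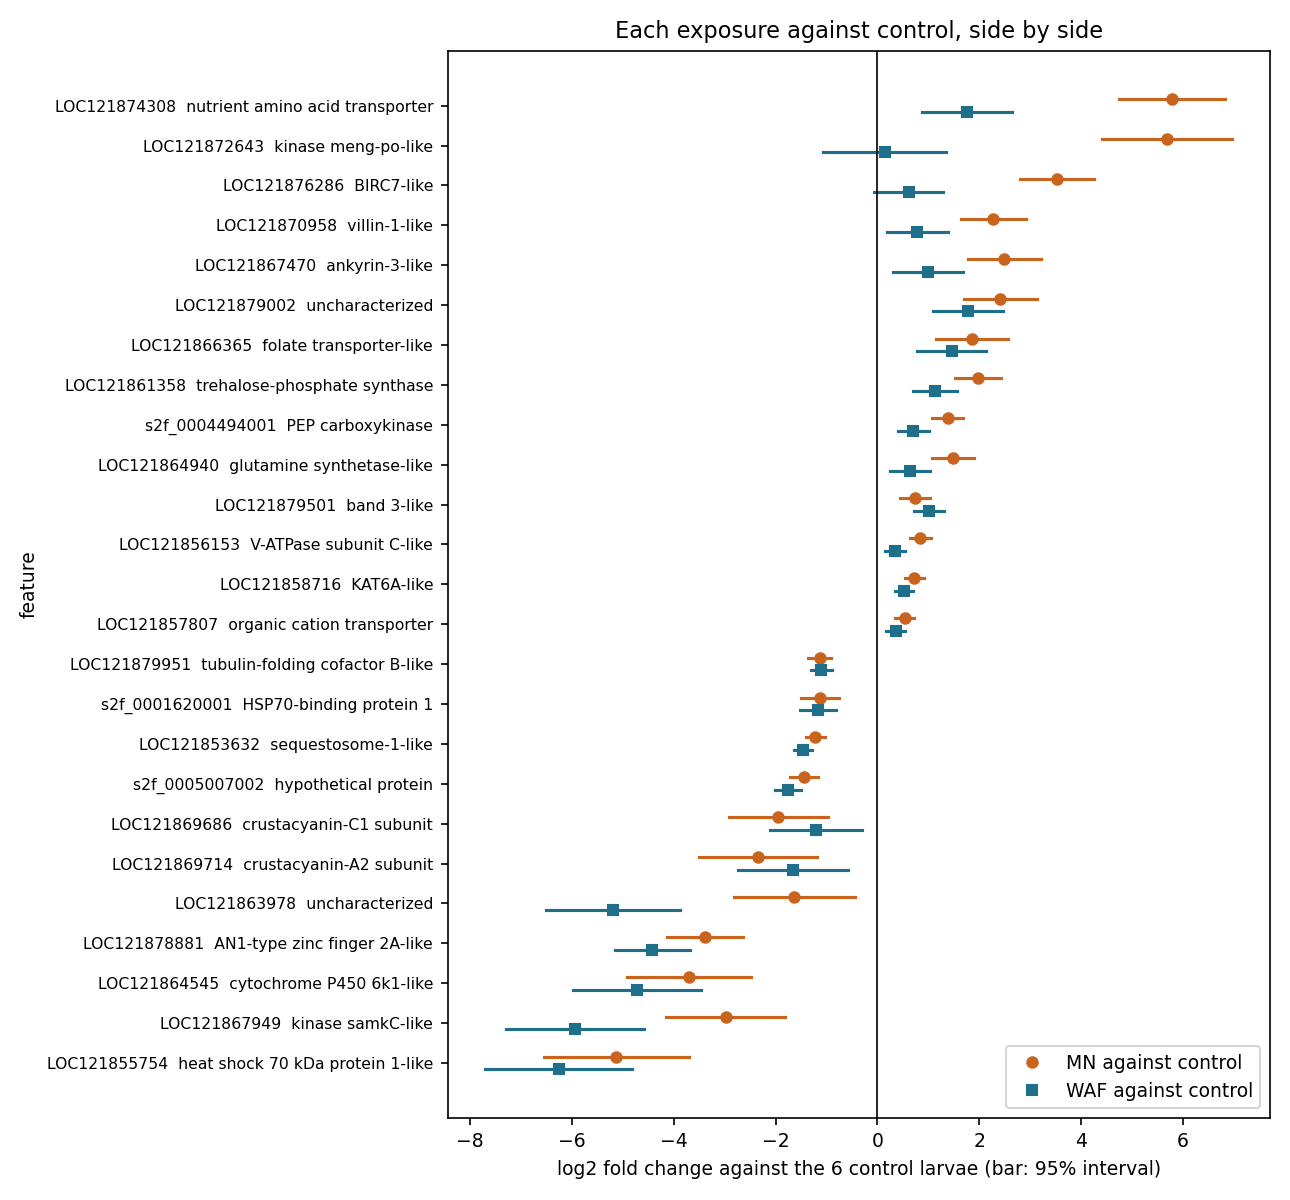
Log2 fold change against the 6 control larvae (x axis) for methylnaphthalene (MN, circles) and WAF (squares) in 25 features named in the text (y axis), with bars for the 95% interval. Both exposures use the same control larvae, so the points of a feature are not independent. Lower features lie left of 0 in both exposures. Most of them lie further left for WAF, by the widest margin for samkC-like and LOC121863978, while crustacyanin-A2 and tubulin-folding cofactor B-like do not. The higher features lie further right for methylnaphthalene except band 3-like.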

How the data were processed

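RNA-seq libraries of 19 whole American lobster larvae (6 control, 6 methylnaphthalene, 7 WAF) were used, 1 library per larva, and every per-sample column was matched to its larva by label. The authors trimmed the reads with fastp. They deposited estimated counts per transcript of the GMGI_Hamer_2.0 transcriptome from Kallisto, and raw counts per ortholog group from Seq2Fun with its Crustaceans database, neither of them normalized. Further upstream settings are not given here.

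Expected counts of 46006 transcripts were summed to 25667 genes through the RefSeq annotation and rounded. Features with fewer than 4 counts in total were removed, then the 15% with the smallest interquartile range of counts. The values 4 and 15% are those of the study's abundance and variance filters. edgeR 4.0.16 (R 4.3.3) fitted all 19 larvae with TMM scaling and the quasi-likelihood test, with Benjamini-Hochberg adjustment over all tested features. The test was run on simulated data in which each changed feature had the same change in both exposures. That check does not cover features whose change differs between the exposures. The contrast was the mean of both exposures minus control. Each exposure, and the difference between them, came from the same fit. CPM values use the TMM library sizes.

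Alternatives were DESeq2 1.42.0, limma 3.58.1, no TMM, other filters, a single exposed group, a replicate block, 1 surrogate variable (sva 3.50.0) and each larva left out. Leaving out WAF larvae 6 and 7, or control larvae 5 and 6, was added after seeing the data.

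Named genes were, per direction, up to 10 Kallisto and 6 Seq2Fun DEGs with full separation and the smallest adjusted p, the DEG with the smallest adjusted p, and the 2 members of each of 16 gene families with the smallest adjusted p. The others were chosen after their values were seen. Members and lists were chosen with earlier results of these data known. Product names came from the study's supplementary tables, names only, and cover 9.96% of Kallisto genes and 16.6% of ortholog groups. These are mostly features that ranked high with methylnaphthalene, so counts within families lean toward that exposure, with a median log2 fold change of 0.90 and 0.31 over all named features. Of the tested genes 200 had counts identical to another gene. A planned search of promoters was not run, and no sequences or coordinates were used here.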

Additional observations from a re-analysis of the deposited data

Results flagged for a closer look

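For 33 Kallisto genes and 12 ortholog groups among those named, the change with methylnaphthalene differed from that with WAF by the direct test in edgeR (adjusted p from 5.7e-05 to 0.0483). Each value below is the log2 change with methylnaphthalene minus that with WAF. Among lower features the change was larger with WAF for samkC-like LOC121867949 (2.96) and its ortholog group s2f_0112968001 (2.86), and for LOC121863978 (3.56), LOC121876260 (3.53), LOC121863976 (3.39) and LOC121863977 (3.01), which have no named product.

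All other differences were in features that were higher in the mean of both exposures, with the larger change after methylnaphthalene. A difference alone does not show that a feature also rose with WAF. The widest were meng-po-like kinase LOC121872643 (5.55), amino acid transporter LOC121874308 (4.04), endoglucanase E-4-like LOC121872646 (3.08) and LOC121865164 (2.08), BIRC7-like LOC121876286 (2.92) and LOC121879926 (2.03). Transport gave 1.51 for sodium-coupled monocarboxylate transporter 1-like LOC121878160, 0.95 for monocarboxylate transporter 12-like s2f_0000064033, 0.85 for trehalose transporter s2f_0000010050, and 0.50 and 0.37 for V-type proton ATPase subunits C and d 1 (LOC121856153 and LOC121863851). Among structural and digestive genes the values were 1.496 for ankyrin-3-like LOC121867470, 1.499 for villin-1-like LOC121870958, 0.96 for unconventional myosin IC-like LOC121867196, 0.66 for muscle actin s2f_0000043014, 1.62 for cationic trypsin-like LOC121863887, 1.24 for trypsin-1-like LOC121867325 and 0.42 for serine carboxypeptidase-like s2f_0003240002. Caspase-2-like LOC121879450 had 1.72. The kinase PIM-3-like s2f_0001349008 had 1.24 against a mean change of 0.55, so its fitted change with WAF was not a rise.

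In metabolism the difference was 0.85 for trehalose-phosphate synthase LOC121861358 and 0.86 for its ortholog group s2f_0000779006, 0.67 for phosphoenolpyruvate carboxykinase s2f_0004494001, 0.84 for glutamine synthetase-like LOC121864940 and 0.73 for phytanoyl-CoA dioxygenase LOC121860504. It was 0.77 for UDP-glucose 4-epimerase-like LOC121872375 and 0.61 for the group s2f_0001138006. Enzymes acting on foreign compounds had 1.28 (cytochrome P450 2L1-like s2f_0000004090), 0.94 (UGT5-like LOC121873674), 0.83 (glutathione S-transferase Mu 1-like LOC121855619), 0.80 (microsomal glutathione S-transferase 3-like LOC121875339), 0.69 (sulfotransferase 1A1-like LOC121856847) and 0.41 (carbonyl reductase s2f_0000545008). Juvenile hormone epoxide hydrolase 1-like LOC121867744 had 0.93. Antioxidant and metal binding proteins had 1.12 (metallothionein-1-like s2f_0072226001), 0.80 (ferritin-like LOC121867537) and 0.35 (peroxiredoxin-6-like LOC121866244). The transcription factors TBX6-like LOC121871165 and SOX-9-like LOC121873486 had 0.82 and 0.57.

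A single larva stood apart within its group, by Dixon's ratio of its gap to the group's range on log2 CPM with an offset of 0.1, in 10 of 192 Kallisto and 4 of 78 Seq2Fun groups tested. Both counts are near the share of about 1 in 20 that chance gives, so the cases below are listed as values only. Methylnaphthalene larva 2 was the highest of its group in 3 genes with neighbouring identifiers, with ratios of 0.698, 0.67 and 0.628 in LOC121863978, LOC121863976 and LOC121863977 (83.4, 94.1 and 106 CPM) while methylnaphthalene larva 3 was the highest in s2f_0003240002, with 0.638 (202 CPM). The lowest methylnaphthalene larva had 0.70 in trypsin-1-like LOC121867325 (8.93 CPM). The highest WAF larva had ratios of 0.575 in BIRC7-like LOC121876286 (4.92 CPM), 0.59 in UGT5-like LOC121873674 (76 CPM), 0.666 in luciferin sulfotransferase-like LOC121865056 (29.4 CPM), 0.617 in gamma-butyrobetaine dioxygenase-like s2f_0002068006 (120.4 CPM) and 1 in P450 6k1-like LOC121878279, where the other 6 WAF larvae had no count. The lowest WAF larva had 0.643 in acanthoscurrin-1-like LOC121864819 (1.28 CPM) and 0.575 in exonuclease s2f_0001028003 (15.8 CPM). In control larvae the lowest had 0.667 in SOX-9-like LOC121873486 (5.24 CPM) and 0.64 in metallothionein-1-like s2f_0072226001 (69.9 CPM).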

How the results depend on the processing

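The Kallisto count of 140 DEGs (32 lower, the rest higher, 69 that differed between exposures) became 59 (28 higher, 28 differing) without TMM, 402 (364 higher) with DESeq2, 64 higher with limma, 634 (503 higher, 131 lower) with no fold threshold, 26 (10 and 16) with the 13 exposed larvae as 1 group, 562 (508 and 54) with a surrogate variable and 90 (50 higher) without WAF larvae 6 and 7. The Seq2Fun count of 77 (63 higher, 14 lower, 30 differing) became 29 (16 higher, 9 differing), 175 (161 higher), 39 (26 higher, limma), 276 (227 and 49), 7 (1 and 6), 229 (215 higher) and 36 (22 higher) under the same settings, and 38 higher without control larvae 5 and 6. The cause of these shifts was not tested, apart from the settings that only change the threshold or the grouping. Leaving out 1 larva gave 68 to 216 Kallisto DEGs (41 to 181 higher, 25 to 38 lower, 39 to 86 differing) and 20 to 113 in Seq2Fun (8 to 98, 10 to 17, 11 to 48).

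The replicate block gave 114 Kallisto DEGs (75 higher, 39 lower, 74 differing) and 71 in Seq2Fun (59, 12, 55 differing). Same-numbered larvae correlated at -0.25 to 0.46 in the Kallisto table (11 of 18 pairs above 0.1) and -0.40 to 0.63 in Seq2Fun (12 of 18). Larvae with different numbers were not correlated for comparison, so these values cannot decide whether the numbers mark pairs. The main fit did not use the numbers. No alternative reversed a named feature. For single features 141 Kallisto and 83 Seq2Fun alternatives lost a call, 20 and 36 gained one, and 1868 and 1041 stayed on their side of the threshold, including features with no call to lose. Without WAF larva 6 the higher DEGs went from 2 to 1 among Kallisto P450 genes, 0 to 1 among UDP-glycosyltransferases, 1 to 0 among digestive proteases and 4 to 3 among solute transporters, and among ortholog groups from 5 to 3 for solute transporters and 2 to 1 for kinases. Low counts limit the P450 genes named for family 6 and LOC121867443, where a control or exposed larva often had no count.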

Other observations

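Some gene lists gave values that belong beside those above. Among 18 genes named as protein kinases in the Kallisto table, 11 were higher and 1 was lower at adjusted p below 0.05 in edgeR (background 2.66% and 0.693%), with a median log2 fold change of 0.69, composed of 1.24 with methylnaphthalene and 0.16 with WAF. Among 15 ortholog groups of kinases 4 were higher and 1 was lower (background 2.07% and 0.447%), and the median was -0.03. The list of hemocyanins, crustacyanins and lipoproteins had 7 lower and 1 higher DEG among 33 genes, yet its median was positive at 2.31 (3.48 with methylnaphthalene, 1.13 with WAF), so its calls and its median differ in sign. The 7 lower DEGs are crustacyanins and the higher one is a hemocyanin B chain-like gene (LOC121879281, 4.16), while most other members were called in neither direction. Digestive proteases had 2 of 19 genes higher at adjusted p below 0.05 (background 2.66%) and a median of 1.35 (2.07 and 0.58). Juvenile hormone epoxide hydrolase 1-like (LOC121867744), which inactivates juvenile hormone in insects, rose by 1.10 (adjusted p = 0.00648; 1.57 and 0.63), as 1 of 7 genes of its list (background 2.66%), with an adjusted p of 0.0672 without TMM scaling.

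Genes on the muscle list, which was matched by words in the name, were called in both directions. Troponin T of skeletal muscle (s2f_0002032006), part of the calcium switch of the sarcomere, had 7119, 8580 and 10167 CPM in control larvae, 4923, 5455 and 7057 CPM with methylnaphthalene and 4450, 5814 and 7563 CPM with WAF (lowest, median, highest). It was below all control larvae in 11 of 13 exposed larvae and fell by 0.55 on the log2 scale (SE 0.14, edgeR adjusted p = 0.0443; -0.58 and -0.52), with an adjusted p of up to 0.14 over its alternatives. Unconventional myosin IC-like (LOC121867196), a membrane motor that is on the list through the word myosin, rose by 0.72 (adjusted p = 0.0225; 1.19 and 0.24), with an adjusted p of up to 0.212. Its rise is no measure of muscle. Muscle actin (s2f_0000043014), a muscle gene by name, also rose, by 0.40 (edgeR adjusted p = 0.0486). Its change was larger with methylnaphthalene than with WAF, by 0.66. The call was lost without WAF larvae 6 and 7 (adjusted p = 0.0693) and without control larvae 5 and 6 (adjusted p = 0.192).

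The next 3 features were chosen after their values were seen. A sialidase-like group (s2f_0071097001), which removes sialic acid from glycans, was a lower DEG with 98.2, 417 and 1446 CPM in control larvae, 41.7, 51 and 209 CPM with methylnaphthalene and 46.6, 153 and 264 CPM with WAF. Its groups overlapped in 7 exposed larvae, and its change was -2.31 (SE 0.46, edgeR adjusted p = 0.00929; -2.73 and -1.89). Serine protease hepsin-like (LOC121855489), a membrane protease, was below all control larvae in all 13 exposed larvae, at 16.2 to 39.6 CPM against 41.4 to 67.2 CPM, and changed by -0.86 (SE 0.18, adjusted p = 0.0118; -0.74 and -0.98). Carbonyl reductase 1-like (s2f_0000545008), which reduces quinones among other carbonyls, was above all control larvae in all 13, at 40.6 to 65.3 CPM against 31.4 to 39.9 CPM, and rose by 0.52 (SE 0.08, adjusted p = 0.00147; 0.72 and 0.31).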
